A study of Mus musculus with 4 samples.

Results

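Spectrins, ankyrins and alpha-actinins build the lattice of actin and spectrin that lies under the membrane of nerve cells, glia and red cells. The messages of 9 of these genes were examined: Sptan1, Sptb, Sptbn1 and Sptbn4 (spectrins), Ank1, Ank2 and Ank3 (ankyrins), and Actn1 and Actn2 (alpha-actinins). They were picked by name from their families with the values of these libraries already known, so their values are a description and carry no test. They are 9 of 35427 genes and 137 of 115898 transcripts that could be matched to an annotation. Mice of the C57BL/6J strain, 4 months old, carried P2RY12CreER, an inducible Cre under the control of a microglial gene, together with Rpl22HA, a ribosomal protein that gains a tag once Cre has acted. Ribosomes with the tag were pulled down from dissected hippocampus, and polyA RNA was sequenced. All mice were trained by fear conditioning, in which an animal learns to link a shock with the setting or signal that came with it. The SD mice then went without sleep for 6 h, and the Control mice could sleep over those 6 h. Each sample pooled 2 mice, and the submitters call the samples technical replicates. Groups rest on the sample titles, because the treatment field of every sample reads sleep deprivation.

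A spectrin molecule pairs an alpha chain with a beta chain, and pairs join head to head into long flexible rods that cross-link short actin filaments. Ankyrins are adaptors that hold beta-spectrin to membrane proteins such as ion channels, exchangers and adhesion molecules, and in axons they gather sodium channels at the initial segment and the nodes of Ranvier. Alpha-actinins are shorter relatives of spectrin that bundle actin filaments, at focal adhesions, in dendritic spines and at the Z-discs of muscle.

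The SD files held 14473030 and 14431647 estimated reads and the Control files 14877011 and 14833320. For reads summed per gene, the spread between files of one group was under sampling noise, so the files were averaged and counted as 1 library. Single transcripts could differ by more between files, such as Sptan1-204 at 4087.8 and 138.5 reads in the Control files. Every comparison sets 1 SD library against 1 Control library without a replicate check or a p-value. Ratios are SD over Control after scaling for library size by TMM, a trimmed mean of gene ratios. Brackets give the exact 95% interval, which covers counting error only and leaves out differences between mice and the division of reads among isoforms. A gene or transcript is called higher or lower where the ratio is at least 2-fold and the interval excludes 1. Microglial markers were not the most abundant: 10 of them summed to 521.8 CPM (reads scaled to a common library size) in SD and 168.8 CPM in Control, with 8 of 10 called higher. The 10 neuronal markers summed to 3444 CPM in SD and 3966 CPM in Control with 0 called. The 8 astrocyte markers summed to 1177 CPM in SD and 2006 CPM in Control with 3 lower, and the 8 oligodendrocyte markers to 2208 CPM in SD and 3526 CPM in Control with 2 lower. The 5 measured inhibitory neuron markers summed to 343.2 CPM in SD and 558.4 CPM in Control with 0 called. Endothelial markers summed to 151.2 CPM in SD and 152.6 CPM in Control with 0 of 6 called, and mural cell markers to 102 CPM in SD and 156.9 CPM in Control with 2 of 6 lower. The part of these marker levels in the values below was not tested. In RNA from such a pulldown, fewer cells of a type, less RNA per cell and another yield of the pulldown cannot be told apart.

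Several results turn on which exon a message carries, so the alternative exons of Sptan1 and Actn1 are shown first, in GRCm38, from the GENCODE M21 transcripts. The 3 alternative coding exons of Sptan1 are printed in capitals between 15 bases of the neighbouring exons. They lie on the plus strand at chr2:30001100-30001159, chr2:30014158-30014172 and chr2:30028644-30028706, in the order along the gene, and each keeps the reading frame.
Sptan1 60-base exon: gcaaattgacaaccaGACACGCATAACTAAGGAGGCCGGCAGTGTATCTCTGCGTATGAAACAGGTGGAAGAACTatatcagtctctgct
Sptan1 15-base exon: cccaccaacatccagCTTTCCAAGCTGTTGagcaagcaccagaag
Sptan1 63-base exon: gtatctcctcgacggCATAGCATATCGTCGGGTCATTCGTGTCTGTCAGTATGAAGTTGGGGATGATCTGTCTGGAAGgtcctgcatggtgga

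Actn1 uses either of a pair of exons between the same neighbours, printed in capitals, on the minus strand at chr12:80170686-80170766 for the 81-base exon and chr12:80170183-80170248 for the 66-base exon. In vertebrates the longer belongs to the non-muscle form, whose actin binding is sensitive to calcium, and the shorter to the smooth muscle form.
Actn1 81-base exon: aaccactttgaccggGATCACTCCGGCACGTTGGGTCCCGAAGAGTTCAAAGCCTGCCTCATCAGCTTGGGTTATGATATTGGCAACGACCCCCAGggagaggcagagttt
Actn1 66-base exon: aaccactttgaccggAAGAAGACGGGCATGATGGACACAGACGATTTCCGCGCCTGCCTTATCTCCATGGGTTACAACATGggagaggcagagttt

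Summed over their transcripts, the 9 genes took 1.527% of the reads in SD and 2.515% in Control. Of the 9 genes 0 were called higher and 1, Actn2, was called lower, while 9.89% of the 14907 measured genes were called (4.24% higher and 5.65% lower). Among measured genes with a transcript of at least 3000 bases, as all 9 of these have, 7.41% were called (3.13% higher and 4.27% lower). The median log2 ratio of the 9 genes was −0.26, against −0.01 over all measured genes. Sptbn4 and Ank1 had ratios over 1 and the other 7 genes had ratios under 1. The sum of a gene over its transcripts lay within 0.026 reads of a whole number in every file for all 9 genes.

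**Figure D1:**
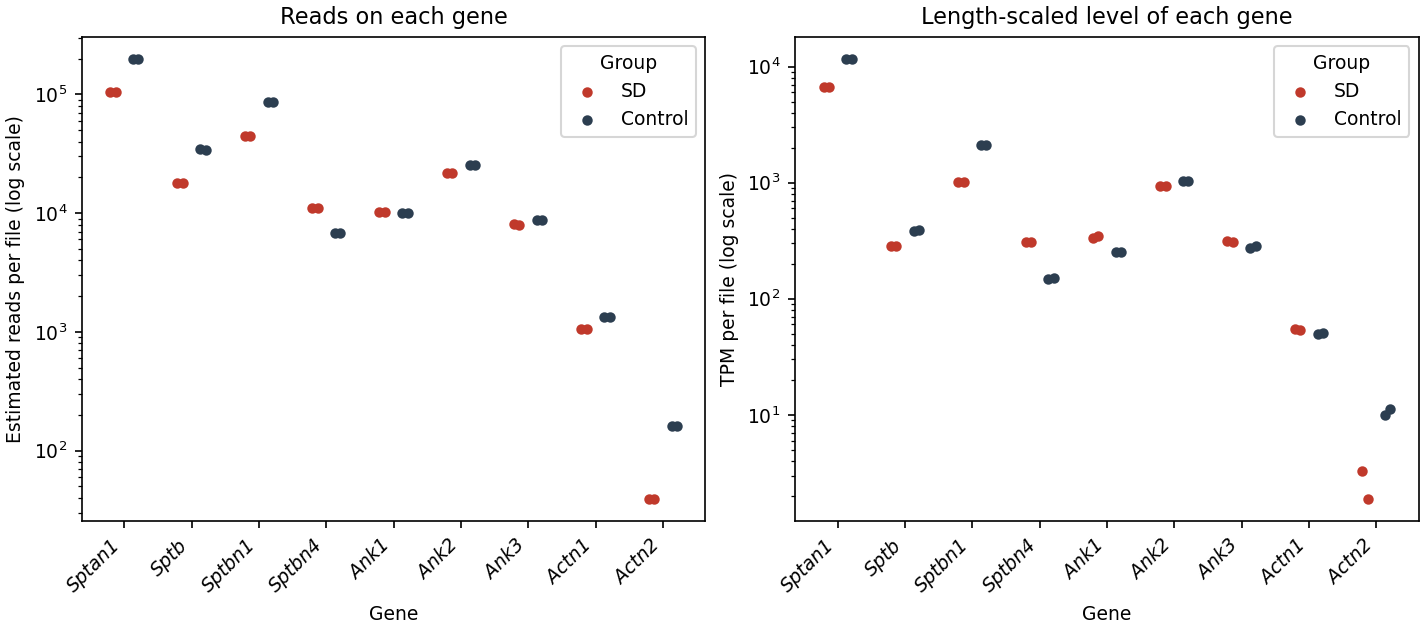
Level of each gene in each file, as estimated reads (left) and as TPM, a level divided by transcript length (right), on log axes, with SD in red left of Control in dark blue and 1 point per file. Files of a group lie on top of each other for all genes except Actn2 in TPM, and the SD points of Sptan1, Sptb and Sptbn1 lie below those of Control while those of Sptbn4 lie above.

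Sptan1 (chr2:29965560-30031451, plus strand) encodes alpha-II spectrin, the alpha chain of nearly all cells outside the red cell lineage. It had 104945 and 104676 reads in the SD files, against 199494 and 198898 in the Control files. It was the gene with the most reads in Control (1.346% of all gene reads) and the fourth in SD (0.7277%). The ratio was 0.560 (0.556 to 0.564), which does not reach the 2-fold line, and 9.22% of measured genes had a lower ratio.

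The beta chains did not share a direction. Sptb (chr12:76580488-76710547, minus strand), the beta chain first known from red cells and also made in neurons and muscle, had 17912 and 17860 reads in SD and 34409 and 34269 in Control, a ratio of 0.554 (0.544 to 0.564). Sptbn1 (chr11:30099395-30268175, minus strand), the widespread beta-II chain of axons and epithelia, had 44992 and 44959 reads in SD and 86440 and 86207 in Control, a ratio of 0.554 (0.548 to 0.561). Sptbn4 (chr7:27356383-27447686, minus strand), the beta-IV chain of axon initial segments and nodes, had 11133 and 11095 reads in SD and 6852 and 6836 in Control, a ratio of 1.73 (1.68 to 1.78). Sptan1, Sptb and Sptbn1 thus had nearly equal ratios, all short of 2-fold, while Sptbn4 lay on the other side of 1, above 91.9% of measured genes. Of the reads on these 3 beta chains, Sptbn4 took 15% in SD and 5.37% in Control, Sptbn1 60.8% in SD and 67.7% in Control, and Sptb 24.2% in SD and 26.9% in Control. There were 1.42 reads of Sptan1 per read on the 3 beta chains in SD and 1.56 in Control.

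The ankyrins differed less at the level of whole genes. Ank1 (chr8:22974844-23150497, plus strand) had 10267 and 10262 reads in SD and 10087 and 10063 in Control, a ratio of 1.08 (1.06 to 1.11). Ank2 (chr3:126921612-127499350, minus strand), which encodes ankyrin-B, had 21786 and 21732 reads in SD and 25272 and 25197 in Control, a ratio of 0.918 (0.901 to 0.934). Ank3 (chr10:69398773-70027438, plus strand), which encodes ankyrin-G, the organiser of the axon initial segment, had 8061 and 7990 reads in SD and 8776 and 8721 in Control, a ratio of 0.976 (0.947 to 1.01). The interval of Ank3 includes 1, and none of the 3 genes was called. Summed over the 3 genes the ratio was 0.967, and Ank2 made up 54.3% of it in SD and 57.3% in Control.

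Of the alpha-actinins, Actn1 (chr12:80167547-80260371, minus strand), the form found in most non-muscle cells, had 1060 and 1049 reads in SD and 1344 and 1337 in Control, a ratio of 0.836 (0.771 to 0.907). Some 8.15% of its exon bases also lie in antisense genes, as 6.37% of those of Ank1 and 3.94% of those of Sptbn4 lie in overlapping genes, and whether the reads were counted by strand was not given in the sources used here. Actn2 (chr13:12269426-12340760, minus strand), the alpha-actinin of muscle Z-discs that is also found in dendritic spines, was scarce, with 39 reads in each SD file and 161 in each Control file. It fell to 2.76 CPM in SD, against 10.7 CPM in Control, a ratio of 0.258 (0.177 to 0.368), and 1.52% of measured genes had a lower ratio. The striated muscle markers summed to 24.61 CPM in SD and 58.47 CPM in Control, with 2 of 5 measured markers called lower. Their part in the Actn2 value was not tested.

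**Figure D2:**
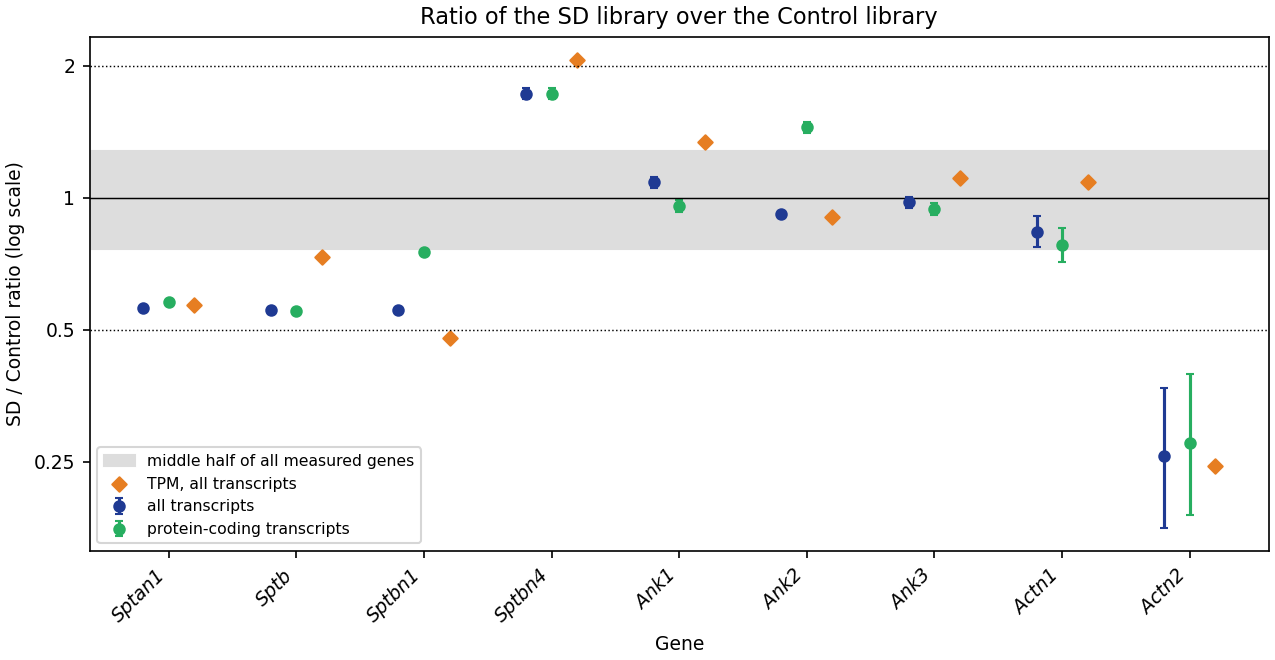
Ratio of SD over Control per gene on a log axis, from all transcripts (blue, 95% counting interval), from protein-coding transcripts (green, same interval) and from TPM (orange, no interval). The grey band holds the middle 50% of all measured genes and dotted lines mark 2-fold. Actn2 is past the lower line on all 3 measures, and Sptbn4 (upper) and Sptbn1 (lower) pass a line on TPM alone, where the median log2 ratio of all genes is 0.22.

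The genes are long and have many annotated transcripts, so read sums and levels per length do not rank them alike. By TPM the order in SD was Sptan1 (6631), Sptbn1 (1015), Ank2 (930.8), Ank1 (339.8), Ank3 (310.4), Sptbn4 (308.0), Sptb (283.5), Actn1 (54.59) and Actn2 (2.589). In Control it was Sptan1 (11650), Sptbn1 (2114), Ank2 (1027), Sptb (387.3), Ank3 (279.4), Ank1 (252.8), Sptbn4 (149.4), Actn1 (50.29) and Actn2 (10.57). In SD the files of Ank3 (312.8 and 308.1 TPM) and Sptbn4 (307.6 and 308.3 TPM) overlapped, so these neighbours have no order, while the other neighbours were apart by more than their files. The TPM of Sptan1 comes largely from a 457-base fragment annotated as a retained intron, Sptan1-207, at 4072 TPM in SD and 6663 TPM in Control, of which 85.3% of the bases lie in exons of coding transcripts. With protein-coding transcripts alone Sptan1 stood at 1648 TPM in SD and 2434 TPM in Control and remained first. Ank2 stood at 181.5 TPM in SD and 119.1 TPM in Control on that measure, below Ank1 (261.0 TPM in SD, 239.3 TPM in Control) and Ank3 (212.5 TPM in SD, 188.5 TPM in Control). The measure leaves out Ank2-216, annotated as a retained intron, at 713.5 TPM in SD and 887.2 TPM in Control. Of its 2359 bases, 2358 lie in exons of coding Ank2 transcripts. The place of Ank2 thus depends on whether those reads are coding, which was not tested.

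Transcripts that are not protein coding weighed on 2 of the genes. They took 18.43% of the Sptbn1 reads in SD and 39.78% in Control, and with coding transcripts alone the Sptbn1 ratio was 0.751 (0.741 to 0.761). For Ank2 they took 54.46% in SD and 71.13% in Control, and the coding ratio was 1.45 (1.40 to 1.49), on the other side of 1 from the whole gene. That coding ratio leaves out Ank2-216, whose bases lie almost all in exons of coding Ank2 transcripts, so reads dropped with it may be coding. Ank1 also crossed 1, to 0.959 (0.931 to 0.988), with 19.34% of reads not on coding transcripts in SD and 8.804% in Control. The coding ratios given here keep the scaling of all transcripts. With coding transcripts scaled on their own, Ank1 had 0.975 (0.946 to 1.004), an interval that includes 1. With the scaling of all transcripts, the coding ratios of Sptb (0.552) and Sptbn4 (1.73) lay within the intervals of the whole genes. That of Sptan1 (0.578) lay slightly above its interval (0.556 to 0.564). The ankyrins summed gave a ratio of 1.10 on coding transcripts, again without Ank2-216. Of that sum Ank2 took 39.1% in SD and 29.7% in Control, Ank1 32.7% in SD and 37.4% in Control, and Ank3 28.3% in SD and 32.9% in Control. Of the coding reads on the 3 beta chains, Sptbn4 took 16.9% in SD and 7.35% in Control, Sptbn1 55.9% in SD and 55.8% in Control, and Sptb 27.1% in SD and 36.8% in Control. There were 1.45 coding reads of Sptan1 per coding read on the 3 beta chains in SD and 1.88 in Control.

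At the level of single transcripts, 70 of the 137 had a mean of at least 10 reads over the libraries. Of these 12 were called higher and 9 lower, 21 of 70, while 33.9% of all 37315 such transcripts were called (21.8% higher and 12.1% lower). By type, 6 higher and 4 lower were among 40 protein-coding transcripts, of which 31.3% were called over all genes (18% higher and 13.4% lower). A further 4 higher and 5 lower were among 27 with a retained intron, of which 36.2% were called over all genes (29.5% higher and 6.78% lower), and 2 higher and 0 lower among 3 marked for nonsense-mediated decay, the removal of messages with an early stop codon, of which 42.8% were called over all genes (27.1% higher and 15.6% lower). The transcript with the most reads differed between SD and Control in 2 of the 9 genes, Ank1 and Actn2, and in 16% of the 13135 measured genes with at least 2 transcripts. The 21 of 70 lies below its background share, and 2 of 9 genes is too few to set apart from 16%. Many isoforms have no stretch of 31 bases of their own, and their reads were divided by a model, an error that the intervals leave out. The largest difference in a transcript's share between files of a group was 10.3 percentage points, in Actn2, and at most 2.55 points in the other 8 genes.

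**Figure D3:**
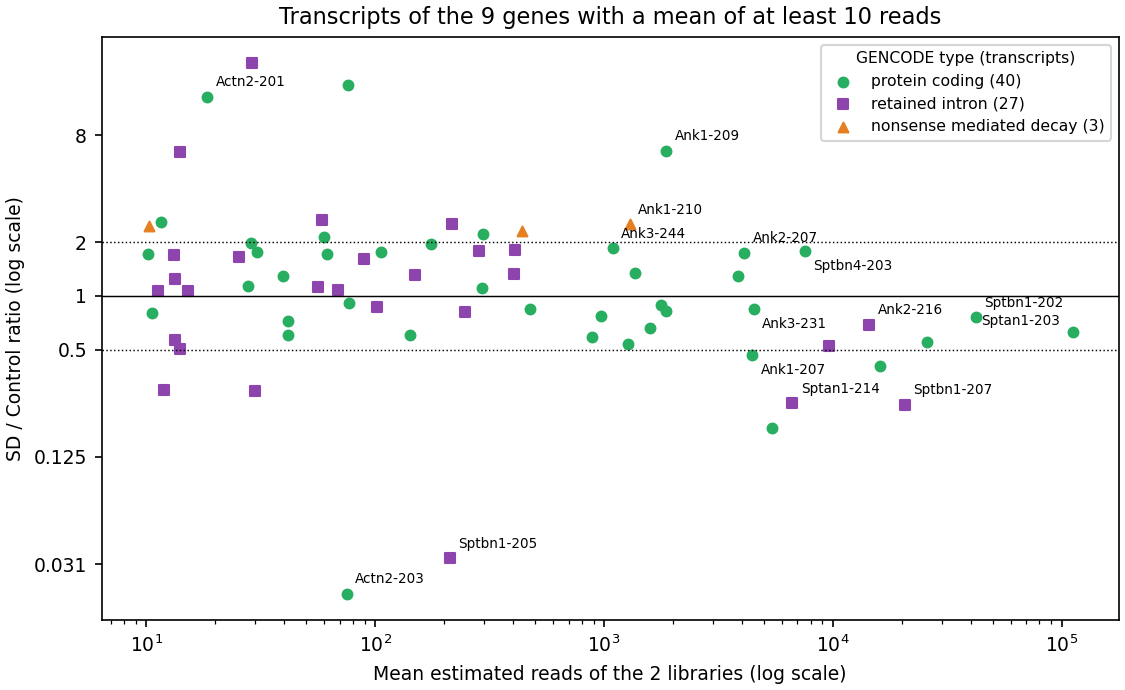
Each of the 70 transcripts by its mean estimated reads (x axis, log) and its ratio of SD over Control (y axis, log), with the shape and colour giving the GENCODE type. Dotted lines mark 2-fold; for the ratio a library with under 3 reads was set to 3. Sptan1-203, Sptbn1-202 and Sptb-201, which have the most reads, lie below 1, and the spread widens toward few reads.

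In Sptan1, Sptan1-203 led in both libraries, with 82765 and 83066 reads in SD and 139561 and 140777 in Control. Its ratio was 0.630 (0.624 to 0.635), and its share of the gene was 79.1% in SD and 70.4% in Control. It alone among transcripts with reads carries the 60-base exon printed above, which makes the form called SH3i, with 20 extra residues after the SH3 domain. Sptan1-205, the only transcript with reads that carries the 63-base exon, fell to 9060 and 8680 reads in SD, against 23138 and 23577 in Control, a ratio of 0.404 (0.394 to 0.414). Transcripts with the 15-base exon took 89.1% of the gene's reads in SD and 83.2% in Control, at a ratio of 0.600 (0.595 to 0.605). Sptan1-201, which carries none of the 3 exons, was lower, at 1035 and 2104 reads in SD and 8450 and 10014 in Control, a ratio of 0.181 (0.171 to 0.191), or 0.119 without the second SD file. Sptan1-204, with the 15-base exon alone, had 2134 and 1124 reads in SD and 4088 and 138.5 in Control, a ratio of 0.820 (0.769 to 0.876). Sptan1-201, Sptan1-203, Sptan1-204 and Sptan1-205 have no 31-base stretch of their own. Their ratios rest on the model's division of reads, which for Sptan1-204 differed widely between the Control files. The mix within Sptan1 differed between the libraries by 8.74 points for Sptan1-203, and files of a group differed by at most 1.98 points. Those files are technical replicates, so their distance does not measure differences between mice. Of its retained-intron transcripts, Sptan1-214 was lower at a ratio of 0.2497 (0.239 to 0.261), while Sptan1-211 (2.53), Sptan1-212 (2.68) and Sptan1-216 (6.39) were higher on few reads, at most 306 in a file.

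Sptb was nearly a single transcript, with Sptb-201 at 98.8% of its reads in SD and 99.3% in Control and a ratio of 0.552 (0.542 to 0.562). The erythroid markers, set beside Sptb and Ank1 because both are red cell genes, summed to 123.1 CPM in SD and 189.4 CPM in Control, with 1 higher and 2 lower of 5 measured. Their part in the Sptb and Ank1 values was not tested. In Sptbn1 the coding Sptbn1-202 had 35109 and 35285 reads in SD and 49250 and 49028 in Control, a ratio of 0.762 (0.752 to 0.773). Sptbn1-207, a retained-intron transcript of 2956 bases of which 46.1% lie in exons of coding transcripts, fell to 7723 and 7766 reads in SD, against 33646 and 33578 in Control. Its ratio was 0.245 (0.239 to 0.251), so that it made up 17.2% of the gene in SD and 38.9% in Control. Sptbn1-207 has no 31-base stretch of its own, so these values, and the coding ratio of the gene, rest on the model's division of reads. Sptbn1-205, also a retained-intron transcript, was lower too, at 17.7 and 7.6 reads in SD and 359.2 and 461.3 in Control, a ratio of 0.0337 (0.0178 to 0.0584), or 0.0208 without the first SD file.

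In Sptbn4 the short and the long form both had ratios over 1. The long form, Sptbn4-201 with 2561 codons, carries the actin-binding domain and starts at a distal promoter, while Sptbn4-203 with 1241 codons starts inside the gene and lacks that domain. Sptbn4-203 had 9501 and 9403 reads in SD and 5626 and 5635 in Control, a ratio of 1.79 (1.73 to 1.85). Sptbn4-201 had 1534 and 1504 reads in SD and 1207 and 1201 in Control, a ratio of 1.34 (1.24 to 1.45). The short form held 85.0% of the reads in SD and 82.3% in Control, and the largest difference in share between the libraries was −3.92 points, for Sptbn4-201. Sptbn4-202, with the same number of codons as Sptbn4-203, was higher on few reads, at 98.6 and 187.5 in SD and 19.2 and 0 in Control, a ratio of 15.2 (8.04 to 32.4). That ratio was 8.03 without the second Control file. Without the first no Control read is left, and the transcript is then at least 50.6-fold higher against a floor of 3 reads.

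The short and the long form of Sptbn4 had ratios over 1 from separate starts, so the 250 bases before each of these starts are shown, from RefSeq on GRCm38.p6 and on the minus strand, with every CG in capitals. They lie at chr7:27446590-27446839 before Sptbn4-201, whose GENCODE start is 10 bases from the RefSeq one, and at chr7:27396554-27396803 before Sptbn4-203, where the starts coincide.
Sptbn4-201 promoter: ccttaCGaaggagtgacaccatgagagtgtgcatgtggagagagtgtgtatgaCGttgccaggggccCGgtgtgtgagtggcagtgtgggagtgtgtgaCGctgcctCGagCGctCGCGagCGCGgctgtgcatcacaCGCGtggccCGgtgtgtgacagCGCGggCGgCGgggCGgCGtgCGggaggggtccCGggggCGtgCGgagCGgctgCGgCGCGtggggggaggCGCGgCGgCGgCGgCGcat
Sptbn4-203 promoter: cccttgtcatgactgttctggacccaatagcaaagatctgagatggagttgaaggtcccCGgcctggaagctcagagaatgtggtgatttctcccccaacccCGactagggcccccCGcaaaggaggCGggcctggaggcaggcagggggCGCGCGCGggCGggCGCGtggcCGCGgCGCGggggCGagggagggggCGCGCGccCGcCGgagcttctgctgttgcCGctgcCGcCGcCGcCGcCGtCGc
The first holds 33 CG pairs and 72.0% G or C, and 4.03% of the 32851 mouse promoters in the table hold as many CG pairs. The second holds 28 CG pairs and 71.6% G or C, and 7.61% hold as many. The window before Sptbn4-202, a start with few reads whose transcript was called higher, differs from them: it holds 1 CG pair and 48.4% G or C, and 92.1% of promoters hold at least as many. The median promoter holds 6 CG pairs and 52.4% G or C. CG reads the same on both strands, and its count describes the windows and says nothing of what acts there.

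Ank1 had nearly equal sums in the libraries but another make-up. Its messages start from separate first exons, a distal and a proximal one for the large forms and another, further along the gene, for a small form. Ank1-207, which begins at the proximal start, fell to 2623 and 2791 reads in SD, against 6224 and 6134 in Control, a ratio of 0.466 (0.446 to 0.488). Ank1-209, which begins at the distal start, rose to 3346 and 3083 reads in SD, against 411.1 and 634.2 in Control, a ratio of 6.54 (5.96 to 7.19). That ratio was 5.39 without the first Control file and 8.34 without the second. The leading transcript was Ank1-209 in SD (31.3% of the gene, against 5.19% in Control) and Ank1-207 in Control (61.3%, against 26.4% in SD). Neither has a 31-base stretch of its own, since their exons are shared one by one with other Ank1 transcripts, but the transcripts grouped by first exon do. The 3 transcripts with the distal first exon hold, between them, 470 such stretches found in no other Ank1 transcript. Not all of these are shared, since 66 belong to Ank1-203 alone and 25 to Ank1-204 alone. The 3 transcripts had 3608 and 3279 reads in SD and 550.5 and 743.9 in Control, a ratio of 5.67 (5.21 to 6.17). That ratio was 4.92 without the first Control file and 6.68 without the second, both outside the counting interval. The distal group held 33.6% of the gene in SD and 6.42% in Control. The 5 transcripts with the proximal first exon held 48.4% in SD and 72.7% in Control, at a ratio of 0.723 (0.697 to 0.749). The SD files lay above both Control files for the distal group and below them for the proximal group. Files of a group are technical replicates, so this order does not cover differences between mice.

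The transcripts of the proximal group did not move together, since Ank1-210, which is marked for nonsense-mediated decay, rose to 1738 and 1905 reads in SD, against 802.7 and 732.5 in Control, a ratio of 2.52 (2.32 to 2.75). Ank1-208, the main small form, encodes 155 codons, and small ankyrin-1 is known as a membrane-anchored protein of the sarcoplasmic reticulum of muscle. It had 1644 and 1604 reads in SD and 1934 and 1930 in Control, a ratio of 0.895 (0.837 to 0.956) that did not pass 2-fold. A retained-intron transcript, Ank1-211, was higher, at 50.5 and 63.8 reads in SD and 1.2 and 0 in Control.

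**Figure D4:**
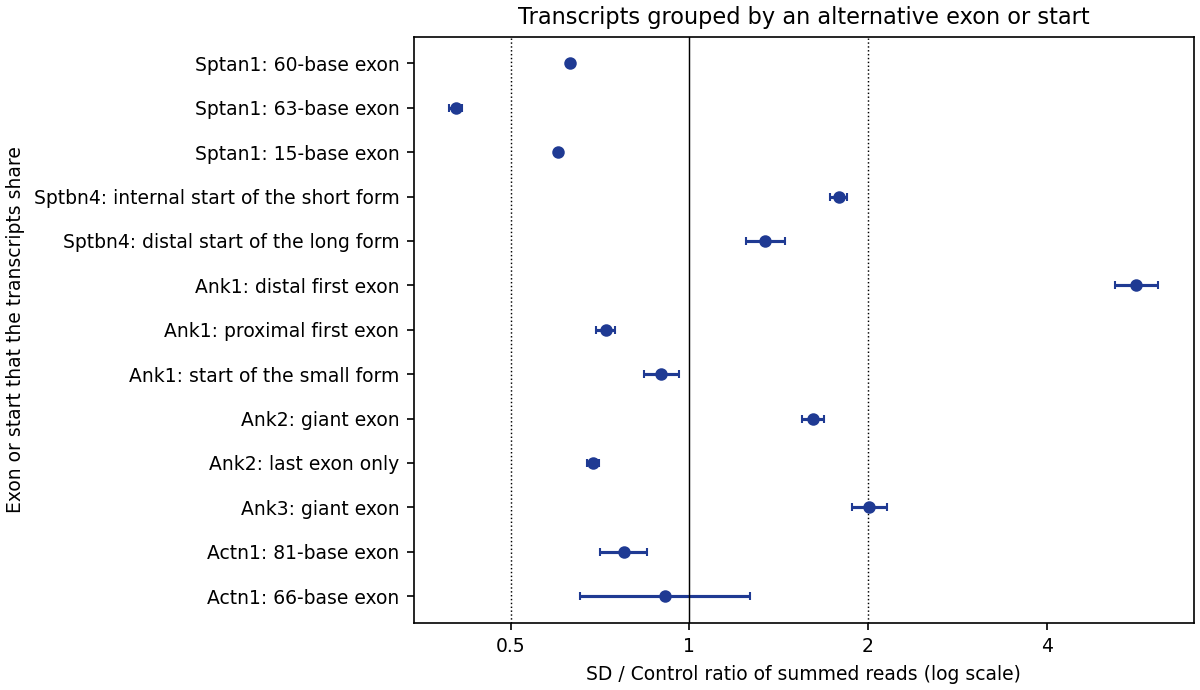
Ratio of SD over Control for reads summed over the transcripts that share an alternative exon or start, on a log axis with the 95% counting interval; dotted lines mark 2-fold. The distal first exon of Ank1 stands alone at 5.67, the giant exon of Ank3 sits at the upper line, and the 63-base exon of Sptan1 is below the lower line.

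Ank2 and Ank3 each have a giant exon, which is used in neurons and makes the giant ankyrins of axons. In Ank2 the 2 transcripts with this exon of 6198 bases had 5527 and 5504 reads in SD and 3640 and 3620 in Control, a ratio of 1.62 (1.55 to 1.69), and 25.4% of the gene in SD against 14.4% in Control. In Ank3 the 4 transcripts that hold at least 500 bases of a giant exon of 7674 bases had 2460 and 2412 reads in SD and 1303 and 1278 in Control. Their ratio of 2.01 (1.88 to 2.15) passes 2-fold by little, and the call was lost when scaled by total reads (1.94), with upper-quartile scaling (1.98), without the second Control file (1.99) and without the first SD file (1.99). They took 30.4% of the Ank3 reads in SD and 14.8% in Control. Reads on giant-exon transcripts thus made up a larger share of both genes in SD, by 10.97 points in Ank2 and 15.6 points in Ank3. Files of a group were at most 0.391 and 0.495 points apart for any transcript of these genes, a technical spread that leaves out differences between mice. In Ank2 the share of Ank2-201, which lacks the giant exon, was also larger in SD (19.4%, against 13.8% in Control). The Ank2 shares depend on Ank2-216, taken up below, whose share was smaller in SD.

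The rest of Ank2 was led by Ank2-216, annotated as a retained intron, with 11359 and 11334 reads in SD and 17602 and 17522 in Control. Its ratio was 0.688 (0.671 to 0.704), and it took 52.2% of the gene in SD and 69.6% in Control. Of its 2359 bases, 2358 lie in exons of coding Ank2 transcripts, so it cannot be told from the end of those messages, and the gene's ratio of 0.918 rests largely on it. Of the coding transcripts, those with the most reads had ratios over 1: 1.75 (1.67 to 1.83) for Ank2-207, which holds the giant exon, and 1.29 (1.23 to 1.35) for Ank2-201, which does not. Ank2-208, which also holds the giant exon, had a ratio under 1, with 462.9 and 376.8 reads in SD and 515.8 and 538.6 in Control, or 0.848 (0.744 to 0.966). Ank2-218 was higher at 2.13 (1.44 to 3.19) and Ank2-222 lower at 0.296 (0.0858 to 0.826), both on under 100 reads.

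In Ank3, Ank3-231 had the most reads in both libraries, 4013 and 3949 in SD and 5061 and 5026 in Control, a ratio of 0.840 (0.806 to 0.876). Ank3-213, a short transcript of 2451 bases, had a ratio of 0.658 (0.612 to 0.707). Ank3-244, which holds the whole giant exon, had 1398 and 1386 reads in SD and 792.3 and 805.2 in Control, a ratio of 1.85 (1.70 to 2.03) that missed 2-fold. Of the others in the group, which hold only part of that exon, Ank3-225, marked for nonsense-mediated decay, was higher at 2.33 (2.02 to 2.70) and Ank3-236 at 2.22 (1.87 to 2.65). Outside that group Ank3-230 was higher at 2.58 (1.02 to 7.37) on at most 19.3 reads in a file. It was 4.53 without the second Control file, and it lost its call, with intervals that include 1, without the first Control file (2.01), without the second SD file (2.13) and when scaled by total reads (2.50). Ank3-209, with a retained intron, was lower at 0.294 (0.146 to 0.553).

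**Figure D5:**
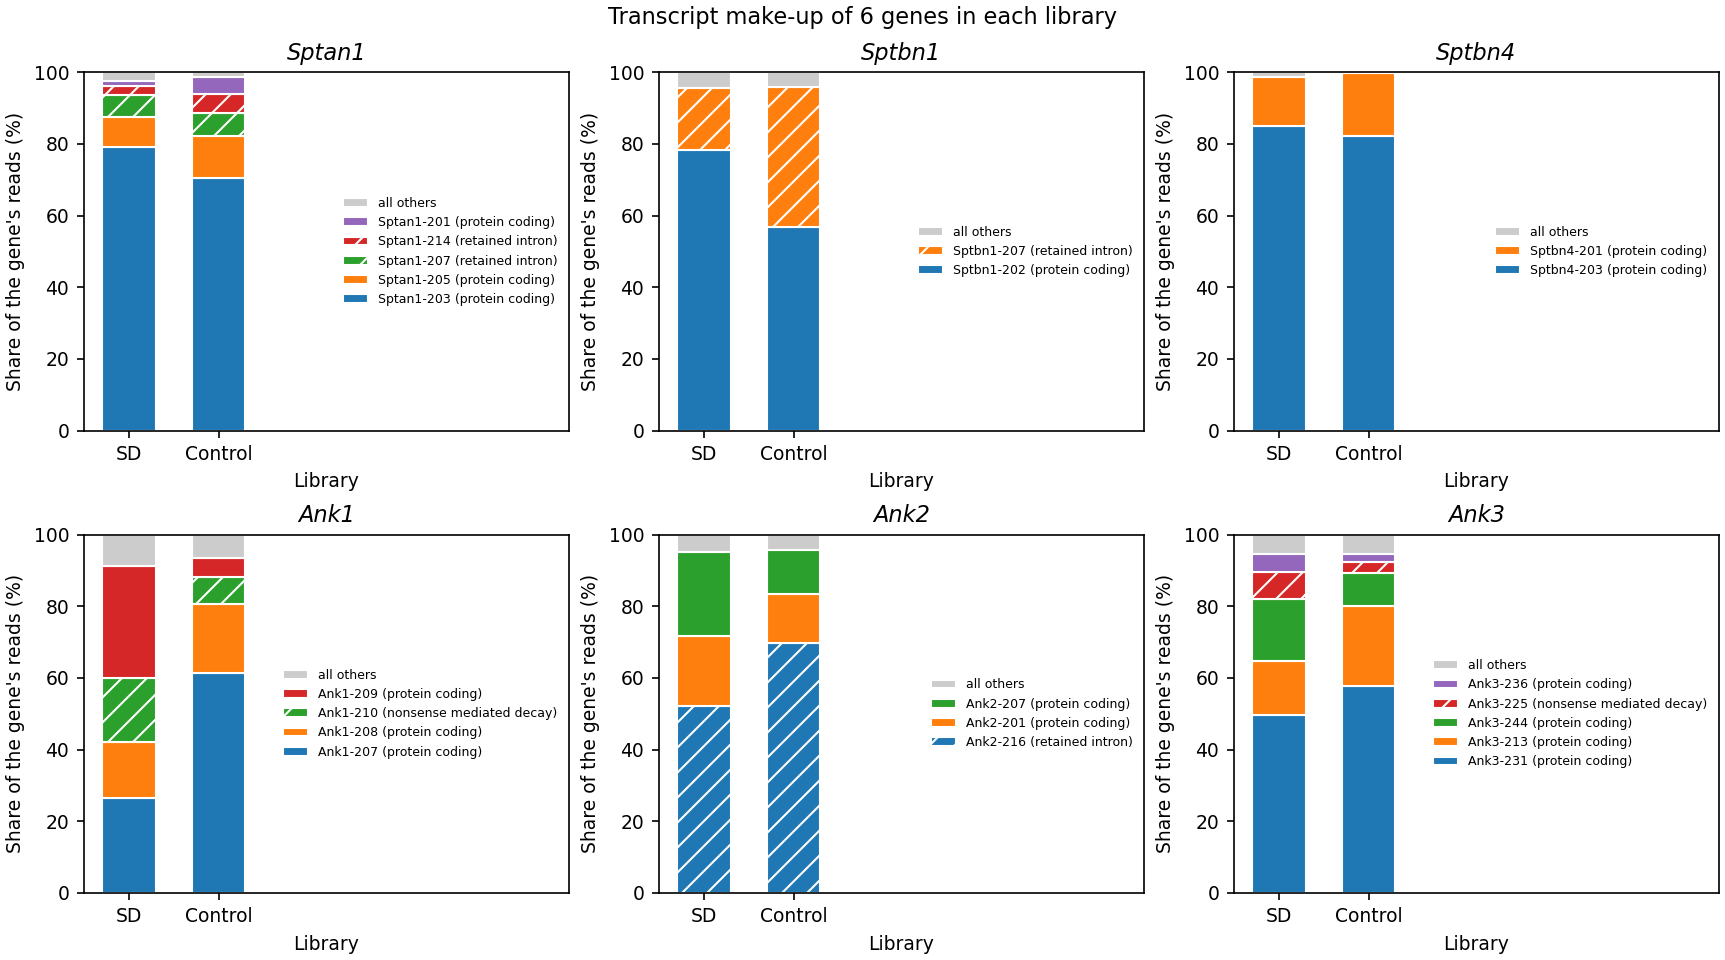
Share of each gene's reads taken by its transcripts in the SD bar (left) and the Control bar (right); transcripts with at least 4% in either library are coloured, hatching marks types other than protein coding, and grey holds the rest. Ank1 changes its leading transcript, Sptbn1-207 and Ank2-216 take less of their genes in SD, and Sptbn4 looks alike in both bars.

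Actn1 was led by Actn1-201, with the 81-base exon, at 809.8 and 818.1 reads in SD and 1131 and 1118 in Control, a ratio of 0.771 (0.703 to 0.844). The 66-base exon was carried by Actn1-202, at 75.9 and 65.3 reads in SD and 84.0 and 81.8 in Control, a ratio of 0.910 (0.654 to 1.27). The interval for the 66-base exon holds the ratio for the 81-base exon, so a shift between the pair was not detectable at this depth. Actn1-205, with a retained intron, had a ratio of 1.31 (1.04 to 1.66). In Actn2 the SD reads were given to Actn2-201 (35.0 and 39.0 reads, against 0 in both Control files) and the Control reads to Actn2-203 (151.7 and 148.7 reads, against 0 in both SD files). The floor for a library at 0 was 3 reads, against which Actn2-201 was at least 13.1-fold higher and Actn2-203 had a ratio of 0.0213 or less. Counting error widens these limits to 10.2 for Actn2-201 and 0.0265 for Actn2-203. Both have the same 894 codons, and Actn2-203 has no 31-base stretch of its own.

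Other genes of the membrane skeleton, listed by role, were mostly within 2-fold. Over 62 listed genes 60 were measured, 2 were called higher and 0 lower, below the 9.89% of all measured genes, and the median log2 ratio was −0.06. The 4 other measured spectrins and alpha-actinins all had ratios under 1 with 0 called, and the widespread Actn4 had a ratio of 0.546 (0.522 to 0.570). Of 13 adducins, 4.1 proteins and actin-capping partners 0 were called, with Epb41, which ties spectrin to actin, the most abundant at 1.29 (1.26 to 1.33). Of 22 membrane proteins and channels that ankyrins bind, 1 was higher: Slc4a1, the red cell anion exchanger, at 37 reads in SD and 14 in Control, a ratio of 2.81 (1.49 to 5.63), while Itpr1, a calcium channel of the endoplasmic reticulum with the most reads of that list, had 0.710 (0.695 to 0.726). Of 15 measured partners of alpha-actinin, 1 was higher: Vcl, which encodes the focal adhesion protein vinculin, at 542 reads in SD and 209 in Control, a ratio of 2.76 (2.35 to 3.25), and Camk2b, the most abundant, had 1.33 (1.29 to 1.36). Calpains, their inhibitor calpastatin and caspase-3, a group that includes proteases known to cut spectrin, had 0 of 6 called, with the calpain gene Capn7 the most abundant over the libraries together at 0.833 (0.786 to 0.883) and Capn2, which has more reads than Capn7 in Control, at 0.578 (0.542 to 0.615).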

How the data were processed

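RNA from 4 samples was analysed. The submitters' processing notes name Salmon, DESeq2 and mm10 without their roles. Versions, annotation, read layout and strand use were not given in the sources used here. Per the file headers, each file gives the authors' estimated counts and TPM for 116546 transcripts. In 99.2% of transcripts over 1000 bases the effective length was 250 below the length. The deposited estimated counts are not normalized, and the deposited TPM values are scaled by length. Transcripts were matched without version to GENCODE mouse release 21 (115898, 99.4%) and summed per gene, and the unmatched ones held 0.339% to 0.366% of a file's reads.

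Over genes with at least 20 reads in a pair of files, the chi-square divided by its degrees of freedom came to 0.227 for the SD files, 0.335 for the Control files and 69.1 to 69.3 across groups. Files of a group were therefore averaged to 1 library (n = 1 per group), and no p-value is given. Means were rounded to whole counts, filtered by filterByExpr (minimum count 10, which kept 14907 genes) and given TMM scaling (edgeR 4.0.16, R 4.3.3). Exact conditional Clopper-Pearson 95% intervals came from scipy 1.17.1, with a floor of 3 reads for a fold against a lower count. PCR reads are not independent molecules, so intervals and floors cover counting error only. Transcripts needed a mean of 10 reads, and were named where they held at least 10% of a gene's reads in either library or were called. Sptan1-207, Ank2-208, Actn1-202 and the groups by exon or start were added after their values were seen. Of the other listed genes, those called and the most abundant of each list were named, and Actn4 and Capn2 were added after their values were seen. Some listed genes and sequences are not reported here. The 9 genes and all lists were chosen with earlier results of these data known.

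RefSeq promoters on GRCm38.p6 were found for 7 of the 9 genes. Alternatives were other scalings (upper quartile, RLE, total reads), TPM, coding transcripts alone, no filter, a 1.5-fold threshold and leaving out each file.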

Additional observations from a re-analysis of the deposited data

How the results depend on the processing

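Of the 9 genes, 1 was called under each scaling, without the low-count filter, with coding transcripts alone and without any 1 file (lowest 1, highest 1). With TPM 3 were called (Sptbn4 higher, Sptbn1 and Actn2 lower) and with a 1.5-fold threshold 5 (Sptbn4 higher, Sptan1, Sptb, Sptbn1 and Actn2 lower). The Actn2 ratio ranged from 0.245 to 0.281 over these alternatives. Ratios crossed 1 for Ank2 (0.886 to 1.47), Ank1 (0.975 to 1.34), Ank3 (0.942 to 1.11) and Actn1 (0.793 to 1.09). In these ranges the coding transcripts were scaled on their own, so coding ratios given earlier under the main scaling can differ from them. TPM moved the median log2 ratio of all genes by 0.22, and no filter put it at 0.10. Relative to that median, the TPM log2 ratio of Sptbn4 is 0.83, short of 2-fold, and that of Sptan1 is −1.03. Calls over all genes were 1474, or 3887 at 1.5-fold, and 42.9% of them were higher, or 67.9% with TPM. Called transcripts of the 9 genes were 21, or 11 with coding transcripts alone (fewer transcripts enter) and 40 at 1.5-fold. Called genes of the listed membrane skeleton were 2, or 4 with TPM and 11 at 1.5-fold. Without any 1 file the ranges were 22 to 26 transcripts, 1482 to 1507 genes, 2 to 2 listed genes and 2 to 2 genes with another leading transcript. With TPM 3 genes (Sptbn1, Ank3 and Actn2) had another leading transcript, and with coding transcripts alone Ank1, Ank2 and Actn2. Of values for single genes and transcripts, 62 moved beyond their counting interval and 384 did not, and of those for groups by exon or start 9 moved and 82 did not. Among called values 0 changed direction. With TPM Ank1-207 (0.545) and Ank2-222 (0.373, interval to 1.04) lost their calls. Apart from the fewer transcripts the cause was not tested. Alternatives for groups by exon or start were chosen after seeing the data. No paired analysis was possible because each group holds 1 independent library, and for that reason the fits with a replicate block, edgeR's test and DESeq2 were not run. At this depth Actn2, with 39 reads in SD, is the least precise of the 9 genes.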
